A study of Mus musculus with 4 samples.

Results

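The CpGs of the mouse immunoglobulin loci were taken by position from the 4 deposited CpG tables of a reduced representation bisulfite sequencing (RRBS) study. On build mm9 they lay at chr12:114450000-117250000 (the heavy-chain locus Igh), chr6:67500000-70680000 (the kappa light-chain locus Igk) and chr16:19020000-19265000 (the lambda light-chain locus Igl). Of 1480609 CpGs covered in at least 1 library, 897 lay in these intervals, 409 in Igh, 455 in Igk and 33 in Igl. The wild-type HSPC library covered 764 of them, the Sca1-BCL6Δ HSPC library 463, the wild-type B cell library 848 and the Sca1-BCL6Δ B cell library 613. No measured value entered the choice.

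RRBS cuts genomic DNA with restriction enzymes, here TaqI and MspI, and sequences short fragments after bisulfite has converted unmethylated cytosines. At each CpG it counts reads that kept a C (methylated) and all reads (coverage). The study asked what a transient Bcl6 gene in early blood cells leaves behind in mature B cells. Wild-type CBAxC57BL/6J mice were compared with Sca1-BCL6Δ mice of the same background, in which a loxP-flanked Bcl6-IRES-eGFP cassette in a Sca1 (Ly6a) promoter vector was removed by mb1-Cre, a Cre recombinase expressed from the Cd79a gene. HSPCs were Sca1+Lin- haematopoietic stem and progenitor cells of bone marrow, and B cells were B220+ cells of peripheral blood. The labels give no age, and the 2 independent transgenic lines are not told apart in them. DNA of 6 to 9 mice was pooled into 1 library per condition, so no value below has a replicate, and intervals and p-values cover counting error alone. Cell identity could not be checked against marker transcripts, since only DNA was sequenced.

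B cells assemble their antigen receptor genes by V(D)J recombination. The RAG recombinase joins a V segment to a J segment, with a D segment between them in Igh, and the DNA between joined segments of the same orientation is lost as a circle. In Igk, many V segments lie in the opposite orientation and join by inversion, which keeps the intervening DNA on the chromosome. HSPCs carry these loci largely in germline order, and mature B cells carry Igh and a light-chain locus rearranged. Igh can later exchange its constant gene by class switching, which removes constant genes. In the RefSeq gene order of assembly GRCm38.p6, Igh runs from 8 constant genes through 4 J and 20 D segments to 183 V segments, beginning with Igha, and Igk runs from 162 V segments through 5 J segments to the constant gene Igkc. Igl holds 4 constant genes, 5 J segments and 3 V segments, interspersed. These counts include pseudogenes, 10 D and 63 V segments in Igh and 60 V segments in Igk. In Igl, 1 constant gene and 2 J segments are pseudogenes. This table is of another build than the files, so it gave the order and no boundaries, and distances below were counted from the interval edge nearest the constant genes.

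Coverage was summed over CpGs, so a read counts once as an observation at each CpG it spans. Over Igh the wild-type libraries held 2578 observations at 380 CpGs (B cells) and 1886 at 341 (HSPCs). The Sca1-BCL6Δ libraries held 731 at 239 CpGs (B cells) and 415 at 118 (HSPCs). Over Igk the sums were 5210 and 2933 for wild-type B cells and HSPCs, at 436 and 396 CpGs, and 2233 and 1632 for the Sca1-BCL6Δ pair, at 350 and 325 CpGs. Over Igl they were 228, 176, 68 and 46 in that order. Whole libraries held between 5513178 and 15526135 CpG observations, with a median of 4 to 9 reads per covered CpG. Coverage ratios below are log2 values of B cells over HSPCs, less the same ratio of the median autosomal step. Blocks of 500 kb and windows of 250 kb were scaled by the median autosomal block or window instead. In each case 0 is the autosomal level.

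In wild-type mice, B cells had lower relative coverage than HSPCs over a long stretch of Igh that began about 250 kb from its constant-gene end. Of 43 Igh steps of 50 kb with at least 20 observations over the pair, 31 had a ratio below 0, as 50% of autosomal steps do by construction, and the median was −0.37, a relative coverage of 0.773. Of the 43, 10 steps were at least 2-fold lower in B cells and 1 was at least 2-fold higher, where 1.81% and 2.44% of autosomal steps were. The 38 steps within 1 Mb on either side of Igh had a median ratio of 0.02.

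The shortfall was not spread evenly. In 500 kb blocks counted from the constant-gene end, relative coverage in wild-type B cells was 0.914 in the first block, 0.525 from 500 to 1000 kb, 0.624 from 1000 to 1500 kb, 0.803 from 1500 to 2000 kb, 1.15 from 2000 to 2500 kb and 0.968 in the remaining 300 kb. Coverage was thus lowest in the second block and back at the autosomal level in the last blocks, where the V segments farthest from the D and J segments lie. The second block had 318 CpG observations in B cells against 359 in HSPCs, although the B cell library was 1.69 times as deep at the median autosomal step. Its log2 ratio was −0.93, with a 95% counting interval from −1.19 to −0.67. Only 1 of 4796 autosomal blocks was lower, and 2 of 6 Igh blocks were at least 1.5-fold lower where 0.334% of autosomal blocks were. Reads in this block began at 64 distinct fragment ends in B cells and 58 in HSPCs.

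A split into 250 kb windows, chosen after these values were seen, placed the edge more closely. The first 250 kb, at the constant-gene end, had 809 observations in wild-type B cells against 425 in HSPCs, a log2 ratio of 0.17 (interval −0.03 to 0.38). The next window, from 250 to 500 kb, had 195 against 226, a ratio of −0.97 (−1.29 to −0.64). The ratio was −0.53 from 500 to 750 kb, −1.38 from 750 to 1000 kb, −0.56 from 1000 to 1250 kb and −0.95 from 1250 to 1500 kb. These 5 neighbouring windows all lay below the range that holds 95% of autosomal windows, −0.45 to 0.40. Some of their counting intervals reached into it, however. They were −0.90 to −0.15 from 500 to 750 kb, −0.90 to −0.22 from 1000 to 1250 kb and −1.48 to −0.41 from 1250 to 1500 kb. From 1500 kb on, the ratios of −0.37, −0.24, 0.28, 0.17, −0.14 and 0.07 lay inside that range. In the window from 750 to 1000 kb, 1 of 9536 autosomal windows was lower. Of the 12 Igh windows, 3 were at least 1.5-fold lower in B cells, as were 0.954% of autosomal windows.

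**Figure D1:**
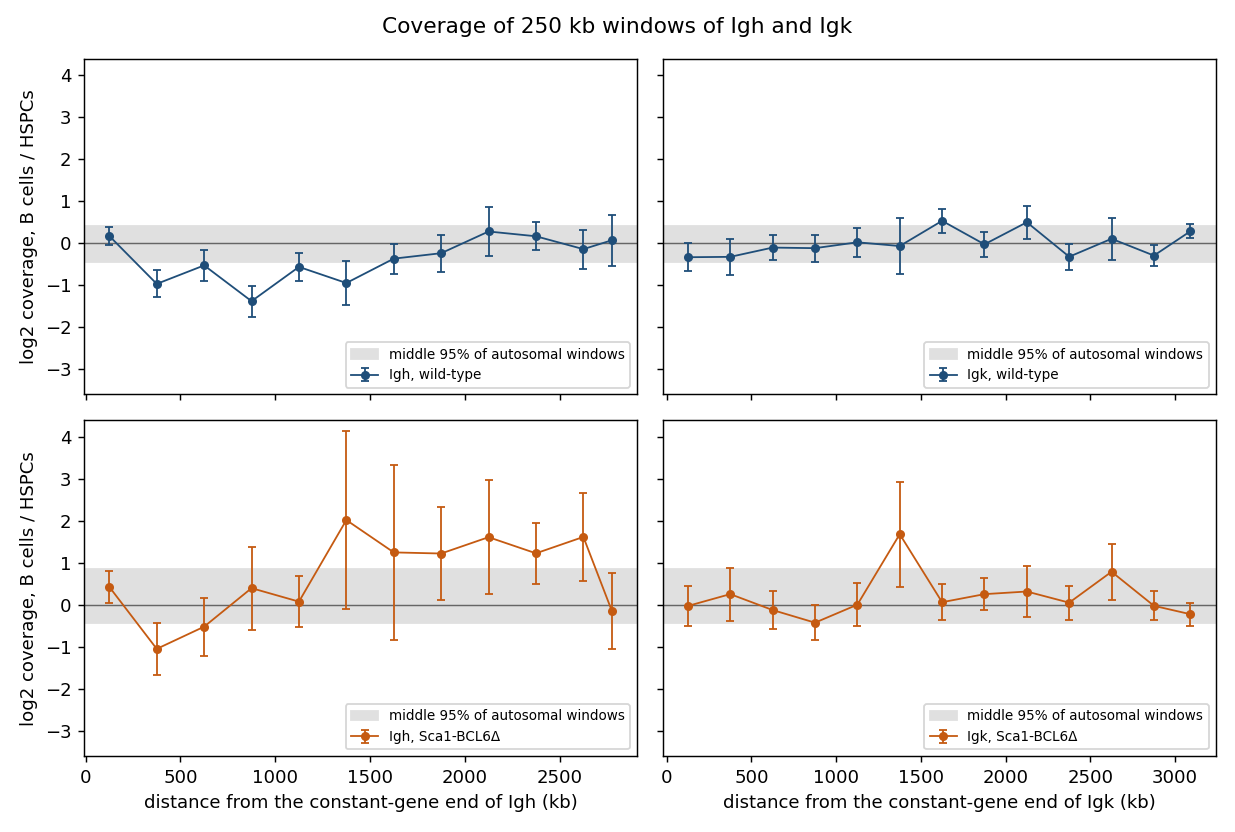
Log2 coverage of B cells over HSPCs in 250 kb windows of Igh (left) and Igk (right) against distance from the constant-gene end in kb, in wild-type (top) and Sca1-BCL6Δ mice (bottom). Points are windows, bars are 95% counting intervals and grey bands hold 95% of autosomal windows. In wild-type Igh the windows between 250 and 1500 kb lay between −1.38 and −0.53, below the band, though some bars reached into it.

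Single CpGs, counted from the same reads, gave a similar picture without summing as far as 2000 kb. Among CpGs with at least 5 HSPC reads, the median log2 ratio in wild-type mice was −0.04 in the first 250 kb of Igh (42 CpGs) and −2.11 from 250 to 500 kb (25 CpGs), all 25 of which were below 0. It was −1.49 from 500 to 1000 kb (33 CpGs), −0.87 from 1000 to 1500 kb (30 CpGs) and −0.40 from 1500 to 2000 kb (26 CpGs). From 2000 to 2500 kb, where the summed block was above the autosomal level, it was −0.43 (16 CpGs). In the remaining stretch it was −0.31 (17 CpGs). Requiring reads in HSPCs lowers such a ratio everywhere, and the autosomal median under the same choice was −0.30. Over all 43 steps, which share the same pair of libraries, distance and ratio had a Spearman rho of 0.36. Without the steps of the first 250 kb, a limit chosen after their ratios were seen, it was 0.64 over 39 steps.

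The steps nearest the constant genes stood near or above the autosomal level in wild-type mice. The first step, chr12:114450000-114499999, had 274 observations in B cells and 111 in HSPCs of wild-type mice, and 65 and 41 in those of Sca1-BCL6Δ mice. Its ratio was 0.55 in wild-type mice, among the highest of the locus. For Sca1-BCL6Δ mice it was 0.20. The next 3 steps had wild-type ratios of −0.05, 0.52 and −0.08 and Sca1-BCL6Δ ratios of 0.99, 1.24 and 0.05. The lowest of these 8 ratios was thus −0.08.

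Among steps with at least 50 observations, the lowest wild-type ratio was −1.58 at chr12:115400000-115449999, with 64 observations in HSPCs and 36 in B cells. The next lowest were −1.45 at chr12:114700000-114749999 (31 and 19) and −1.20 at chr12:114800000-114849999 (78 and 57). The highest were 0.55 at chr12:116750000-116799999 (20 and 50), 0.55 at the first step, and 0.54 at chr12:116200000-116249999 (23 and 57). Except for the first step, the low steps lay nearer the constant genes and the high steps farther from them.

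**Figure D2:**
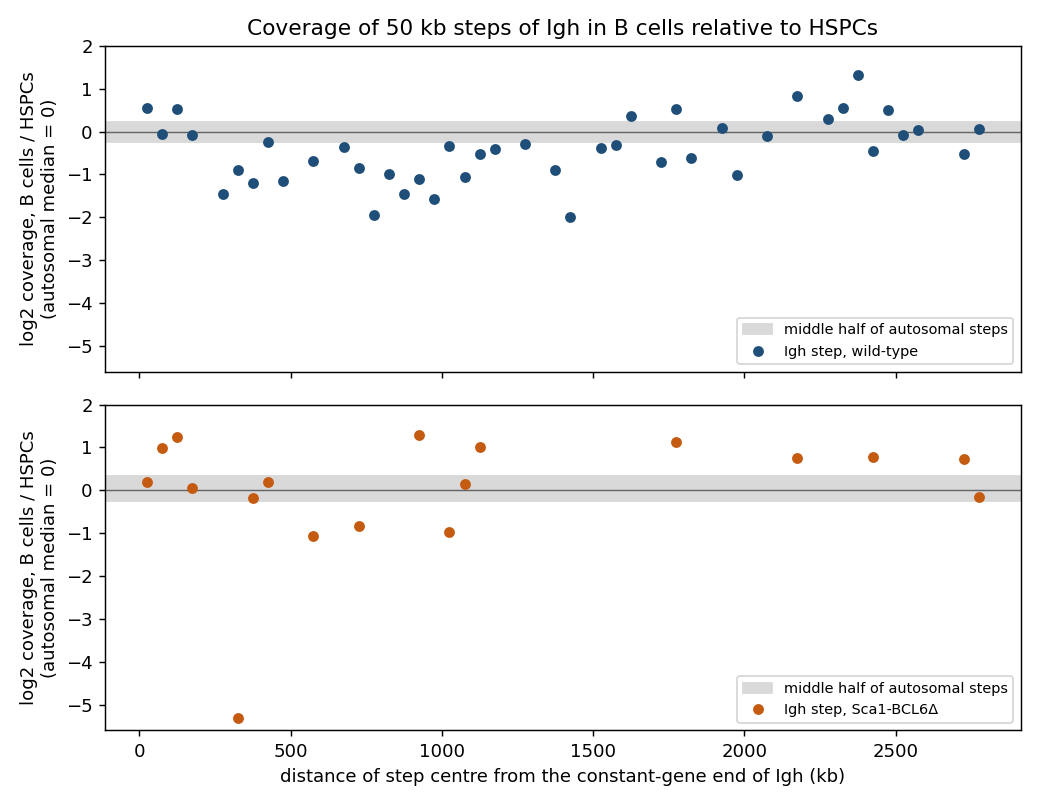
Log2 coverage of B cells over HSPCs in 50 kb steps of Igh with at least 20 observations, by distance from the constant-gene end in kb, in wild-type (top) and Sca1-BCL6Δ mice (bottom). Grey bands run from the lower to the upper quartile of autosomal steps. The wild-type steps between 250 and 1500 kb all lay below 0, and the lowest Sca1-BCL6Δ step was at −5.32.

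In Sca1-BCL6Δ mice the Igh ratio could be read in 18 steps, with a median of 0.19. Of these, 2 were at least 2-fold lower and 4 at least 2-fold higher in B cells, beside 1.27% and 5.08% of autosomal steps. The window from 250 to 500 kb had 49 observations in B cells and 74 in HSPCs, a log2 ratio of −1.04 (−1.67 to −0.42), and 15 of 9459 autosomal windows were lower. This low value came from 1 step, chr12:114750000-114799999, with 1 observation in B cells and 43 in HSPCs. The other steps of the window had 7, 16, 16 and 9 in B cells and 6, 13, 10 and 2 in HSPCs. The window from 500 to 750 kb stood at −0.51 (−1.21 to 0.18). From 750 to 1000 kb, where the wild-type ratio was lowest, it was 0.40 (−0.59 to 1.39), and from 1000 to 1250 kb it was 0.08 (−0.52 to 0.69). Every window from 1250 to 2750 kb was higher in B cells, between 1.23 and 2.02. The HSPC counts there were very small, for example 3 observations against 19 in B cells from 1250 to 1500 kb, a log2 ratio of 2.02 with a counting interval from −0.09 to 4.14. From 2250 to 2500 kb they were 27 against 88, a ratio of 1.23 (0.51 to 1.95). The last 50 kb stood at −0.14.

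A single step stood apart in these mice, and it was singled out after its values were seen. The step chr12:114750000-114799999 had 43 observations from 27 reads in the HSPCs of Sca1-BCL6Δ mice and 1 from 1 read in their B cells, beside 50 and 45 observations in the wild-type HSPC and B cell libraries. Its ratio was −5.32 there and −0.90 for wild-type mice. Counted in reads, the Sca1-BCL6Δ ratio was −5.22, with a 95% counting interval from −10.6 to −2.62. Among the 8 CpGs from 250 to 500 kb with at least 5 reads in the Sca1-BCL6Δ HSPC library, 4 had no read in its B cell counterpart, and the median ratio was −2.64. On autosomes under that choice, 0.781% of CpGs had no read and the median was −0.46.

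The Sca1-BCL6Δ HSPC library itself was short of Igh reads. Of 144 Igh CpGs with at least 5 reads in both wild-type libraries, 79 (54.9%, Wilson 95% interval 46.7 to 62.8%) lacked reads in Sca1-BCL6Δ HSPCs. In the B cells of these mice 15 (10.4%, 6.41 to 16.5%) lacked them. On autosomes outside the loci these shares were 6.70% and 4.09%. None of 4280 autosomal 500 kb blocks had a share as high as that of Igh in the HSPC library. The share rose from 40% in the first 500 kb (50 CpGs) to 72% from 1500 to 2000 kb (25 CpGs). It was 69.2% in the next block (13 CpGs) and 64.7% in the last (17 CpGs). In the 1 Mb on either side of Igh it was 19.8% in the HSPC library and 4.73% in the B cell library. At Igk it was 4.5% and 5%, near the autosomal level.

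**Figure D3:**
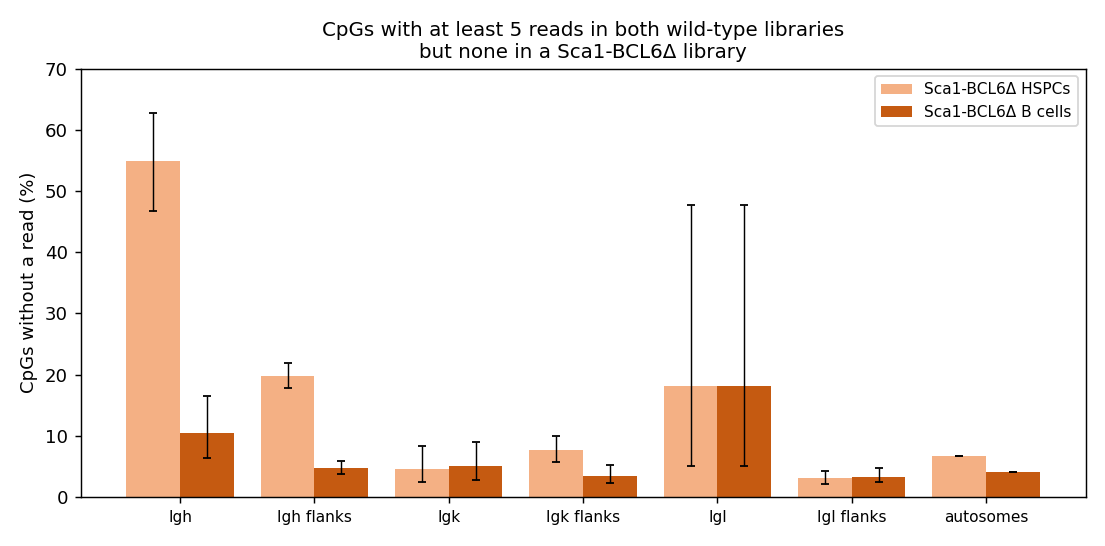
Percentage of CpGs without a read in either library of the Sca1-BCL6Δ mice (HSPCs and B cells, by colour), among CpGs with at least 5 reads in both wild-type libraries, in the loci, 1 Mb on either side of each, and autosomes. Bars start at 0 and carry Wilson 95% intervals; Igh in Sca1-BCL6Δ HSPCs stands at 54.9%, beside 6.70% on autosomes.

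Set against wild-type HSPCs directly, coverage in Sca1-BCL6Δ HSPCs was 0.563 of the autosomal level in the first 500 kb block of Igh and 0.326, 0.293, 0.151, 0.309 and 0.478 in the following ones. The block from 1500 to 2000 kb, with 21 observations against 250, was lower than each of 4795 autosomal blocks. Sca1-BCL6Δ B cells had 0.650, 0.548, 0.610, 0.456, 0.690 and 0.772 of the wild-type B cell coverage in the same blocks. Both Sca1-BCL6Δ libraries were therefore below their wild-type counterparts in every block. The block from 2000 to 2500 kb was among them, at 0.309 for HSPCs and 0.690 for B cells, while the wild-type B cell to HSPC ratio there was 1.15. The mice pooled, the cells and the library cannot be told apart as sources of this difference.

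Because the Sca1-BCL6Δ HSPC library was so thin at Igh, Sca1-BCL6Δ B cells were also set against wild-type HSPCs, which are shared with the wild-type comparison. This pair differs in genotype and mice pooled as well as in cell type, and these cannot be told apart in it. Sca1-BCL6Δ B cells were also below wild-type B cells in every block, as given above. Relative coverage was 0.594 in the first block, 0.288 from 500 to 1000 kb, 0.380 from 1000 to 1500 kb, 0.366 from 1500 to 2000 kb, 0.791 from 2000 to 2500 kb and 0.746 in the last 300 kb. In that setting 1 of 4796 autosomal blocks was lower than the second block. By 250 kb window, the ratios between 250 and 1750 kb ran from −2.30 to −1.16, and the window from 1750 to 2000 kb stood at −0.60, inside the 95% range of autosomal windows (−0.67 to 0.65).

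At Igk, wild-type B cells had close to the autosomal coverage. Over 51 steps the median ratio was −0.11, with 28 steps below 0. Of these 51, 2 were at least 2-fold lower and 1 was at least 2-fold higher, beside 1.81% and 2.44% of autosomal steps. By 500 kb block from the Igkc end, relative coverage was 0.797, 0.928, 1.01, 1.19, 0.985, 0.881 and, in the last 180 kb, 1.22. The block at the Igkc end had the lowest value, with 449 observations against 334 and a log2 ratio of −0.33 (−0.59 to −0.07). Lower ratios were found in 2.46% of autosomal blocks. The Spearman rho of distance and ratio was 0.21 over the 51 steps, beside 0.36 over the 43 steps of Igh.

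The step nearest the Igkc end with reads, chr6:70600000-70649999, had 191 observations in B cells and 144 in HSPCs of wild-type mice, and 101 and 77 in those of Sca1-BCL6Δ mice. Its wild-type ratio was −0.35 and its Sca1-BCL6Δ ratio −0.07. The 30 kb beyond it held no covered CpG. The next step inwards, with 21 wild-type HSPC and 17 B cell observations, had a ratio of −1.05, and the one after it stood at −0.21. The fourth, with 2 and 10 observations, was too thin for a ratio. The lowest Igk step with at least 50 observations was chr6:70200000-70249999 at −1.15, with 54 in wild-type HSPCs and 41 in wild-type B cells, and its Sca1-BCL6Δ counts were 16 and 23. The highest was chr6:69050000-69099999 at 1.10, with 69 and 250 observations.

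In Sca1-BCL6Δ mice the median over 37 Igk steps was 0.05, with 2 steps at least 2-fold lower and 3 at least 2-fold higher. Of autosomal steps, 1.27% and 5.08% were. Block values ran from 0.839 to 1.21. Both the low and the high extremes differed from those of wild-type mice. The lowest of the steps with at least 50 observations was chr6:69750000-69799999 at −0.74 (34 and 28) and the highest chr6:67950000-67999999 at 1.05 (28 and 81). Across the 37 steps the ratios of the genotypes had a Spearman rho of 0.13.

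Igl gave 5 steps. The wild-type ratios were −0.16, −0.43, 0.21, −1.17 and −1.12 in order of coordinate, with a median of −0.43. Of the 5, 2 were at least 2-fold lower, beside 1.81% of autosomal steps. Those 2 were thin, with 43 and 13 observations in HSPCs and 32 and 10 in B cells. Over the locus, 228 observations in wild-type B cells faced 176 in HSPCs, a log2 ratio of −0.38 (−0.71 to −0.05). Of autosomal 250 kb windows, about as long as this locus, 4.07% were lower. Only 3 steps had enough reads in Sca1-BCL6Δ mice, with a median of 0.08.

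Methylation was high at all 3 loci and in all 4 libraries. At the 91 Igh CpGs covered in every library, the pooled level of wild-type HSPCs was 69.9% (Wilson interval 66.3 to 73.3%) and that of Sca1-BCL6Δ HSPCs 81.2% (76.8 to 84.9%). The wild-type B cell level was 90.1% (88.0 to 92.0%) and the Sca1-BCL6Δ B cell level 89.7% (86.6 to 92.2%). At 281 Igk CpGs the levels were 81.1%, 92.9%, 95.2% and 95.1% in the same order. At 16 Igl CpGs they were 82.2%, 90%, 95.5% and 91.5%. Autosomal CpGs outside the loci stood at 43.6%, 44.1%, 49.4% and 47.4%, and the 1 Mb flanks between 30.2% and 42.4%. The B cell libraries lay close together at each locus, and wild-type HSPCs had the lowest level.

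**Figure D4:**
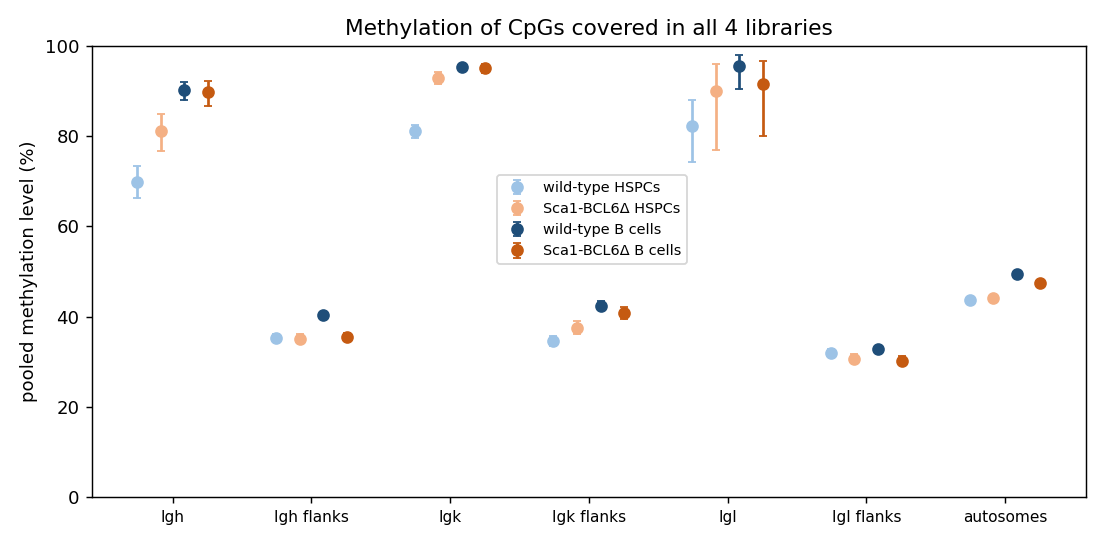
Pooled methylation level in percent of the CpGs covered in all 4 libraries, for each locus, the 1 Mb on either side of it and autosomes, by library. Points are pooled levels and bars Wilson 95% intervals; the loci lie between 69.9% and 95.5% and their flanks between 30.2% and 42.4%.

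Wild-type B cells exceeded wild-type HSPCs by 20.2 percentage points at Igh (interval 16.2 to 24.3), 14.1 at Igk (12.5 to 15.8) and 13.3 at Igl (5.54 to 21.5). The same difference over all autosomal CpGs was 5.75 points. Autosomal CpGs stood lower, so steps of like methylation, classed by the 2 Sca1-BCL6Δ libraries, were set beside them. Autosomal steps with 80 to 90% methylation in these libraries had a median difference of 16.3 points and those with 90 to 100% had 16.1. The pooled Igk and Igl differences were below these medians and that of Igh was 3.91 points above its class. For Igh and Igl, however, the class median lay inside the counting interval. The place of Igk depended on how its CpGs were weighted. Without the CpGs of highest coverage its difference was 18.7 points, and as a mean of CpG levels it was 17.2, both above its class median of 16.1. Whether Igk stood below its class was therefore not settled.

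In Sca1-BCL6Δ mice the B cell excess was 8.54 points at Igh (3.64 to 13.6), 2.13 at Igk (0.581 to 3.76) and 1.49 at Igl (−11.4 to 15.5). Autosomal steps of the 80 to 90% class, set by the wild-type libraries, had a median difference of 0.588 points. Between the B cell libraries of the genotypes, Sca1-BCL6Δ less wild-type, the difference was −0.41 points at Igh (−4.05 to 2.89) and −0.15 at Igk (−1.33 to 0.937). Between the HSPC libraries it was 11.3 points at Igh (5.69 to 16.5) and 11.9 at Igk (9.85 to 13.8), beside 15.1 points for autosomal steps of the 90 to 100% class, set here by the B cell libraries.

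By 50 kb step, with at least 10 observations in both libraries, wild-type B cells were higher in 87 of 91 steps, with a median difference of 18.2 points. Of autosomal steps outside the loci, 87.6% were higher, with a median of 12.5 points. The median was 20 points over 39 Igh steps, 18 over 47 Igk steps and 9.78 over 5 Igl steps. Sca1-BCL6Δ B cells were higher in 28 of 47 steps, with a median of 1.96 points, beside 56.2% of autosomal steps and a median of 1.08.

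**Figure D5:**
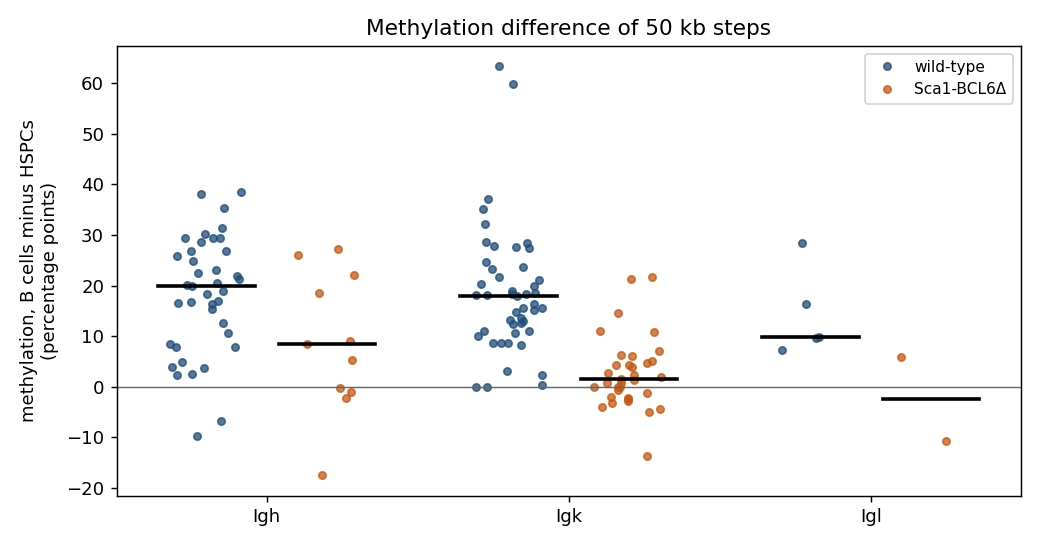
Methylation difference, B cells minus HSPCs, in percentage points for 50 kb steps with at least 10 observations in both libraries, by locus and genotype. Points are steps and horizontal lines medians; the wild-type medians are 20 at Igh, 18 at Igk and 9.78 at Igl, and the Sca1-BCL6Δ medians 8.48, 1.43 and −2.38.

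Fisher's exact test was run on every CpG of the genome with at least 10 reads in both libraries, with Benjamini-Hochberg adjustment over all of them. It compares the reads of a pair of libraries. Between wild-type B cells and HSPCs, 87 CpGs of the loci could be tested. A call needed an adjusted p below 0.05 together with 20 points or more of difference. Of the 87, 2 met it, as did 0.734% of all CpGs tested. Both were higher in B cells and lay in Igk. At chr6:67615395, 22 of 22 reads were methylated in wild-type B cells and 4 of 11 in wild-type HSPCs (adjusted p = 0.0222 by Fisher's exact test). In the Sca1-BCL6Δ pair 10 of 10 B cell reads and 5 of 5 HSPC reads were methylated. At chr6:68264684 the counts were 19 of 20 and 6 of 19 (adjusted p = 0.0157 by Fisher's exact test), beside 4 of 4 and 2 of 4. With its 5 and 4 reads, the Sca1-BCL6Δ HSPC library could not be tested at either position. When it replaced the wild-type HSPC library, an alternative added after seeing the data, 0 of 11 tested CpGs of the loci were called. At an unadjusted p under 0.05, 13 of the 87 CpGs (14.9%) passed, all higher in B cells, and 10.6% of all CpGs did.

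The other comparisons had few testable CpGs. Between the Sca1-BCL6Δ libraries 9 CpGs of the loci, all in Igk, were tested and 0 were called by Fisher's exact test, with 0 at an unadjusted p under 0.05. Genome-wide, 0.0183% were called and 1.74% passed unadjusted. Between the HSPC libraries 8 were tested, with 0 called and 0 unadjusted, beside 0.037% and 4.44% of all CpGs. Between the B cell libraries 26 were tested, with 0 called and 1 unadjusted, beside 0.0172% and 1.68%. On the simulated data described below, few CpGs shifted by 40 points were called. The shares were 0% between the Sca1-BCL6Δ libraries, 0.4% between the HSPC libraries and 2.2% between the B cell libraries. Between the wild-type libraries the share was 0.3%. An absence of called CpGs therefore says little.

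Pooling CpGs within steps by a Cochran-Mantel-Haenszel test, with CpGs as strata, gave more calls. Between wild-type B cells and HSPCs, 12 of 39 tested steps were called and all were higher in B cells, 4 of 17 in Igh, 8 of 21 in Igk and 0 of 1 in Igl. Genome-wide, 20.4% of steps were called higher. The median difference was 17.2 points over the 39 steps and 12.2 over all steps. Of the 12, 11 had a methylation class, set by the Sca1-BCL6Δ libraries. After subtraction of the class median these 11 lay between 3.82 and 19.9 points, so 0 passed the 20-point limit, and the median over the 35 tested steps with a class was 2.56. The other called step, chr12:116900000-116949999, had no CpG covered in all 4 libraries and so no class.

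The 5 called steps with the largest differences were spread over both loci. In Igh, chr12:116900000-116949999 had a mean CpG level of 62.4% in HSPCs and 100% in B cells, while the Sca1-BCL6Δ libraries had 0 and 10 reads there. At chr12:117150000-117199999 the means were 66.7% and 96.3%, and the pooled Sca1-BCL6Δ levels 75% of 8 reads and 100% of 19. These Igh steps lie at the far V end. In Igk, chr6:67600000-67649999 had means of 61.4% in HSPCs and 98.2% in B cells, with pooled Sca1-BCL6Δ levels of 94.6% in HSPCs and 98.9% in B cells. At chr6:69050000-69099999 the wild-type means were 66.7% and 95.2%, and the Sca1-BCL6Δ levels 96.1% and 100%. At chr6:68900000-68949999 they were 61% and 89.3%, and the Sca1-BCL6Δ levels 92% and 91.3%. In each of the 3 Igk steps the Sca1-BCL6Δ HSPC library was near the level of the B cells.

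By the same test 0 of 7 steps were called between the Sca1-BCL6Δ libraries, where 0.0356% were genome-wide. Between the HSPC libraries 0 of 9 were called, beside 4.13% genome-wide, and between the B cell libraries 0 of 20, beside 0%. None of these steps had an unadjusted p under 0.05. Genome-wide, 5.32% of steps had one between the Sca1-BCL6Δ libraries, 23.1% between the HSPC libraries and 3.86% between the B cell libraries. With so few steps tested in the loci, their absence says little.

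Unmethylated CpGs were rare at the loci. Of 355 CpGs with at least 5 reads in both wild-type libraries, 5 were under 20% methylated in both, all of them in Igh, where the autosomal share was 31.0%. They were 5 of 144 in Igh (3.47%, 1.49 to 7.87%) and 0 of 200 in Igk, with an upper Wilson limit of 1.88%. Of the 5, 2 lay close to the constant-gene end, at chr12:114458173 (0 of 8 reads methylated in HSPCs and 2 of 25 in B cells) and chr12:114458865 (1 of 9 and 2 of 18). The other 3 lay together at chr12:115617110, 115617112 and 115617124, with 0 of 10, 0 of 13 and 1 of 14 methylated reads in HSPCs and 2 of 16, 2 of 15 and 2 of 19 in B cells. The Sca1-BCL6Δ HSPC library had no read at any of the 5. Neighbouring CpGs share reads, so those 3 are not independent.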

How the data were processed

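RRBS libraries were prepared and sequenced by the authors after 18 PCR cycles, with DNA of 6 to 9 mice per library. Per the methods text deposited with the data, reads were aligned by a Zymo Research in-house pipeline, whose version is not given in the sources used here, to the 36-bp ends of predicted fragments. The build was mm9, per the submitters' processing notes. A step that removes PCR duplicates is not recorded, so reads are not independent molecules. Per the file headers, the deposited tables give the methylated and total read count of each CpG and a methylation score, which equalled 1000 times the level rounded down for all CpGs. The authors' read tables give a count of CpGs per read.

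From these counts, levels were pooled over CpGs covered in all 4 libraries, with Wilson and Newcombe 95% intervals. Coverage was summed in 50 kb steps of at least 20 CpG observations, with 0.5 added to each sum, and divided by the median autosomal step (44468 steps for wild-type mice). Blocks and windows were divided by the median autosomal block or window. Intervals of coverage ratios used the numbers of reads. Steps of the Cochran-Mantel-Haenszel test needed at least 3 CpGs, each read 5 times or more in both libraries and more than 50 bp apart. Calls of CpGs and steps required an adjusted p below 0.05 and 20 percentage points. Named CpGs and steps were up to 5 called per direction with the largest difference. For coverage they were the 3 lowest and 3 highest steps per locus and genotype with at least 50 observations, described by their extremes where fewer are printed, and the 4 steps nearest the constant genes of Igh and Igk. The members and lists were chosen with earlier results of these data known. On simulated data, each CpG of 200 steps was shifted by 40 points, downward where methylation was high and upward where it was low. Shifts within a step could thus oppose each other. Of these steps, 38% were found between the wild-type libraries and 27.5% between the Sca1-BCL6Δ libraries. The shares do not give the power for a step that changes in 1 direction. Alternatives changed read minimums, scaling, deep CpGs and the unit counted. No genome of build mm9 was used here, so no sequence is printed. Python 3.11.15, pandas 2.3.3, numpy 2.4.6, scipy 1.17.1 and matplotlib 3.10.9 were used.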

Additional observations from a re-analysis of the deposited data

Results flagged for a closer look

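In the main setting, the median coverage ratio of 50 kb steps had opposite signs in the genotypes at all 3 loci, over unlike sets of steps. Sca1-BCL6Δ less wild-type, the log2 ratios differed by 0.56 at Igh, 0.16 at Igk and 0.51 at Igl. These differences were not tested, since each condition is 1 library. At Igk the wild-type and Sca1-BCL6Δ medians were −0.11 and 0.05, over 51 and 37 steps. At Igl they were −0.43 and 0.08, over 5 and 3 steps. At both of these loci a sign changed under alternatives given in the next section. At Igh the wild-type median was −0.37 and the Sca1-BCL6Δ median 0.19, over 43 and 18 steps, and 54.9% of the CpGs with reads in both wild-type libraries had none in Sca1-BCL6Δ HSPCs.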

How the results depend on the processing

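Of 129 alternative values, 106 stayed within the counting interval of the main value or, for counts, within 1.5 times of it. Of the others, 19 were counted as moved and 4 as reversed in sign. Among the 106, 3 also changed sign. These 3 were Sca1-BCL6Δ coverage medians near 0, Igk at −0.0103 when summed over the locus and Igl at −0.0884 with scaling by covered CpG number and −0.38 with CpGs covered in all 4 libraries. The cause of the changes was not tested unless the setting itself shows it. No paired analysis was possible because each condition has 1 library, so leaving out a replicate was not possible either. The 2 CpGs called between wild-type B cells and HSPCs became 0 with at least 20 reads per CpG (6 tested in the loci), 0 with libraries thinned to 1 coverage (5 tested) and 0 against Sca1-BCL6Δ HSPCs (11 tested). The 12 called steps became 1 with at least 10 reads per CpG (4 tested), 7 with at least 5 CpGs per step (17 tested), 0 after subtraction of the class median (11 of the 12 had a class) and 0 against Sca1-BCL6Δ HSPCs (9 tested). Subtraction of the class median left wild-type level differences of 3.91 points at Igh, −1.98 at Igk and −2.87 at Igl. At Igk the difference was 17.2 as a mean of CpG levels and 18.7 without CpGs above the 99th percentile of coverage. Those CpGs are 3 in the first Igk step, with up to 598 reads. As a mean of CpG levels, the Igl difference was −33.3 between the wild-type libraries and −22.2 between the Sca1-BCL6Δ ones, on 1 CpG.

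The wild-type Igh coverage median was −0.52 when reads were counted and −0.87 over the steps from 250 to 1750 kb, which gave −0.17 in Sca1-BCL6Δ mice. Summed over the locus, wild-type Igk was at 0.0746. Sca1-BCL6Δ Igk was at −0.13 when scaled within classes of steps with like numbers of covered CpGs, and Sca1-BCL6Δ Igl at 0.95 when reads were counted (2 steps). With CpGs covered in all 4 libraries, the block from 2000 to 2500 kb of Igh was at −0.0945 for wild-type mice and 0.67 for Sca1-BCL6Δ mice, and the Sca1-BCL6Δ block from 500 to 1000 kb at −0.90. The wild-type block from 500 to 1000 kb stayed between −0.93 and −0.73 under its 5 alternatives. The alternatives for single blocks, the 250 to 1750 kb range and the exchanged HSPC library were added after seeing the data. Depth limits the Sca1-BCL6Δ comparison at Igh, with 415 observations in HSPCs.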
